A study of Homo sapiens with 6 samples.

Results

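The 10 genes described here encode inflammatory chemokines (CXCL8, CXCL2, CXCL3, CXCL1, CCL2 and CCL3), inflammatory cytokines (IL1B, TNF and IL18) and the adhesion molecule ICAM1. They were taken by gene symbol from a table of 23858 genes, which lists 8 of the 10. CXCL1 and CCL3 have no row, where the lowest total of any listed gene was 21 reads over the 6 libraries, and they were not analysed here. RNA was sequenced from NB4 cells given arsenic trioxide for 6 h (3 libraries) and from control NB4 cells (3 libraries). Both groups are the NB4 line, derived from a human acute promyelocytic leukaemia with the fusion gene PML-RARA, and arsenic trioxide is a drug against this leukaemia that leads to loss of the fusion protein. The dose and the handling of the controls are not given in the sources used here, nor whether the replicates were separate cultures, so the spread behind the p-values is that between these libraries and may be technical.

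Chemokines are small secreted proteins that draw leukocytes along a gradient. CXCL8, CXCL1, CXCL2 and CXCL3 act on neutrophils through the receptor CXCR2, and CXCL8 also through CXCR1, whereas CCL2 draws monocytes through CCR2. IL1B and IL18 are made as inactive precursors that caspase 1 cuts within inflammasomes, and TNF is shed from the cell surface by the protease ADAM17. ICAM1 is a surface protein that beta 2 integrins of leukocytes bind. In myeloid cells many of these genes are known targets of the transcription factors NF-kB, AP-1 and C/EBP, and many of their messenger RNAs are short-lived because of AU-rich stretches.

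Values are RPKM (reads per kilobase of exon, scaled to the reads counted in genes), and the libraries held 19361333 to 22609019 reads. A floor of 3 reads over 1 kb of exon lies at 0.133 to 0.155 RPKM, counting error only. The first principal component of log2 RPKM + 1 (55.3% of the variance) separated the groups, and the second (15.2%) set arsenic trioxide replicate 3 and control replicate 1 apart from the other libraries. Of the promyelocyte markers MPO, ELANE, PRTN3, AZU1 and CD33, 4 of 5 were listed, with a summed level of 617 to 942 RPKM in arsenic trioxide libraries and 947 to 1306 RPKM in control libraries. MPO made up most of this sum, at 677 ± 123 RPKM with arsenic trioxide and 940 ± 132 RPKM in controls (SD, n = 3 each). AZU1 was at 25.1 ± 2.98 RPKM with arsenic trioxide and 50.5 ± 6.80 RPKM in controls. It alone of the 4 was called lower by limma-trend, described below (adjusted p = 0.00258), as were 13.4% of all tested genes. In limma-voom with no filter MPO and CD33 were lower as well (adjusted p = 0.0033 and 0.0355). Of 6 monocyte and macrophage markers, CD14 and CSF1R were listed, and together they reached 1.26 to 2.25 RPKM with arsenic trioxide and 2.11 to 2.83 RPKM without it. CD14, a defining marker of monocytes, was near 0 in every library and the groups overlapped. It had 7, 4 and 0 reads in arsenic trioxide replicates 1, 2 and 3, and 6, 3 and 10 reads in control replicates 1, 2 and 3. Among T cell, endothelial and fibroblast markers, 1 of 3, 0 of 3 and 0 of 3 were listed. The listed T cell marker, CD3D, was at 3.04 to 4.22 RPKM with arsenic trioxide and 3.22 to 3.76 RPKM in controls. The part of these marker levels in the results below was not tested.

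The sequences before the start sites of members are shown because these genes are known for NF-kB and AP-1 sites close to the start. They cover the 250 bases upstream of the RefSeq start (build GRCh38.p14), which the promoter table gave for 8 of the 10 members and not for CCL2 and IL18. Each is written 5′ to 3′ on the strand of the gene, and capitals mark a match to the NF-kB consensus, to the AP-1 motif TGANTCA, to the C/EBP motif TTGCNNCAA or to the 9-letter motif GGNNNTTCC, searched on both strands. GGNNNTTCC, a looser form of the NF-kB motif that overlaps it, was added after the sequences had been read.
CXCL8, chr4:73740319-73740568, plus strand: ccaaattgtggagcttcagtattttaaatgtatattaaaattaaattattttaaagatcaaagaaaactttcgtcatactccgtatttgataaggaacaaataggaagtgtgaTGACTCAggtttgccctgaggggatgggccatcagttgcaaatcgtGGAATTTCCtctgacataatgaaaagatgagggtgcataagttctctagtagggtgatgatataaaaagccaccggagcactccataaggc
CXCL2, chr4:74099196-74099445, minus strand: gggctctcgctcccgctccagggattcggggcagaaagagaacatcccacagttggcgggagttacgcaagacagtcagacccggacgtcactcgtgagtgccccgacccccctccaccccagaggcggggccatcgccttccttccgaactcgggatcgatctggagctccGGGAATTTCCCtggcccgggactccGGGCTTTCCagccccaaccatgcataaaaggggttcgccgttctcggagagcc
CXCL3, chr4:74038690-74038939, minus strand: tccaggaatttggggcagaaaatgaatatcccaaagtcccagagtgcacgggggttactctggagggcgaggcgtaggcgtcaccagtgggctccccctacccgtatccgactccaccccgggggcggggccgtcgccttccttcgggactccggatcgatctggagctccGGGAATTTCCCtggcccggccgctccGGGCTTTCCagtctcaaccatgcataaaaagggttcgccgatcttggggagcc
ICAM1, chr19:10270870-10271119, plus strand: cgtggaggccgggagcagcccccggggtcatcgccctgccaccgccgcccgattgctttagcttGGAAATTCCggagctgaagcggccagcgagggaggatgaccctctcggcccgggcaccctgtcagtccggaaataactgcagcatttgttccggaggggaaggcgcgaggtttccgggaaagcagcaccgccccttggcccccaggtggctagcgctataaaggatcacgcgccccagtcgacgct
IL1B, chr2:112836780-112837029, minus strand: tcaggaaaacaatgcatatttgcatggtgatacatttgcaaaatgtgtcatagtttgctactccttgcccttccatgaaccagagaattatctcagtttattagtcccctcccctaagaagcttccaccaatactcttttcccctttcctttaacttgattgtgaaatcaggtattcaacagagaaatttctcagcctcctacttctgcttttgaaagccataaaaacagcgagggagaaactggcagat
TNF, chr6:31575315-31575564, plus strand: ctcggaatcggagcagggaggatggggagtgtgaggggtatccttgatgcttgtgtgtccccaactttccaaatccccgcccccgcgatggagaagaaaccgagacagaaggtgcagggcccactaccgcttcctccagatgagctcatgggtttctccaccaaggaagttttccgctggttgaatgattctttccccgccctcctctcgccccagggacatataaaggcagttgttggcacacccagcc

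In the CXCL8 sequence the AP-1 motif lies 137 to 131 bases before the start and GGNNNTTCC lies 91 to 83 bases before it. In CXCL2 the NF-kB consensus matches on the gene's strand 78 to 69 bases before the start, and on the other strand 1 base further on. CXCL3 and CXCL1 carry the same match 79 to 70 bases before the start, and all 3 of these related genes hold a further GGNNNTTCC at 53 to 45 bases. ICAM1 has GGNNNTTCC at 186 to 178 bases. Against the genes as GENCODE 29 draws them, the TNF window lies outside the gene, the ICAM1 window and its match lie wholly inside it, and those of CXCL8, CXCL2, CXCL3 and IL1B reach across the gene's start. IL1B, TNF and CCL3 had no match to these letters in this window. The NF-kB consensus was found in 3 of 8 member windows (CXCL1, CXCL2 and CXCL3) and in 9.57% of 27305 windows, 1 for each symbol of the table. The AP-1 motif was found in 1 of 8 and in 6.6% of all windows, and the C/EBP motif in 0 of 8 and in 1.66%. GGNNNTTCC was found in 5 of 8 and in 17.1%. Since that motif was added after the member sequences had been read, its 5 of 8 cannot be read against the share of all windows. CXCL1, CXCL2 and CXCL3 are relatives with matches at nearly the same places, so these are not separate cases, and a match is a description of letters, not of a bound factor.

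**Figure D1:**
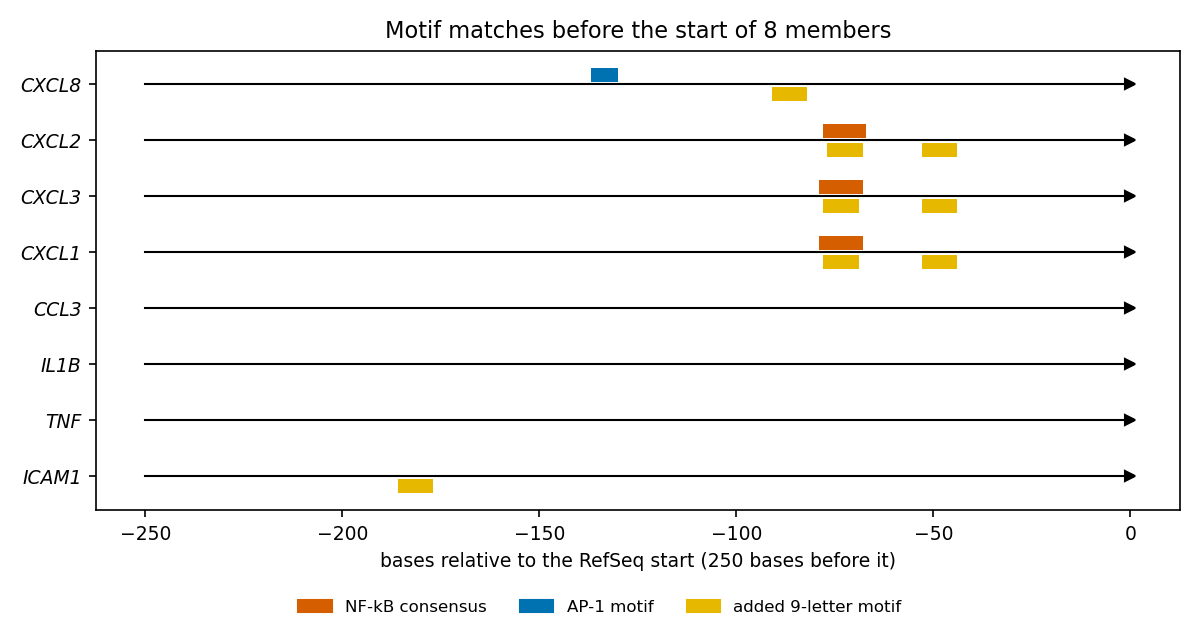
Map of motif matches in the 250 bases before the RefSeq start of 8 members. Each line is 1 gene with its start at the right end, and coloured blocks mark matches to the NF-kB consensus, the AP-1 motif and the added 9-letter motif (below the line). CXCL1, CXCL2 and CXCL3 have blocks at nearly the same places, and IL1B, TNF and CCL3 have none.

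The comparison asks which of these genes had changed after 6 h of arsenic trioxide. CXCL8, CXCL2, IL1B and ICAM1 rose, by a ratio of group means of 4.48, 4.01, 2.66 and 3.66, while TNF and IL18 did not pass the test. In bulk RNA, fewer cells of a type and less RNA per cell cannot be told apart. Of the 8 listed members, 6 reached a mean of 1 RPKM over the 6 libraries and were tested with limma-trend across 16803 genes. Of these, 4 were called higher (Benjamini-Hochberg adjusted p under 0.05), where 12.0% of all tested genes were called higher and 25.4% either way. None was called lower, against 13.4% of all tested genes, and none was lower at an unadjusted p under 0.05 or with limma-voom (0 in each case). CXCL2 and IL1B passed the filter only through their treated libraries, so the share of tested members that rose is no support by itself. With no filter all 8 listed members entered the fit, CXCL3 joined the 4, and 5 of 8 were called higher, against 10.1% of 23858 genes, with 0 of 8 lower against 9.55% (19.6% either way). The median log2 fold change of RPKM + 1 was 0.50 over the 8 listed members in that fit and 0.01 over all genes. The lowest total of any listed gene was 21 reads, which CXCL3 exceeded only through its treated libraries (33 reads, against 5 in controls). The share of listed members that rose is therefore no support by itself either. The members were also chosen with earlier results of these data known, so these shares and medians are descriptions only. The authors' deposited table gives an adjusted p under 0.05 to the same number, 5 of 8, and to 24.8% of its genes in either direction. In the authors' deposited table the log2 fold changes are 2.14 for CXCL8, 1.99 for CXCL2, 2.67 for CXCL3, 1.39 for IL1B and 1.85 for ICAM1.

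**Figure D2:**
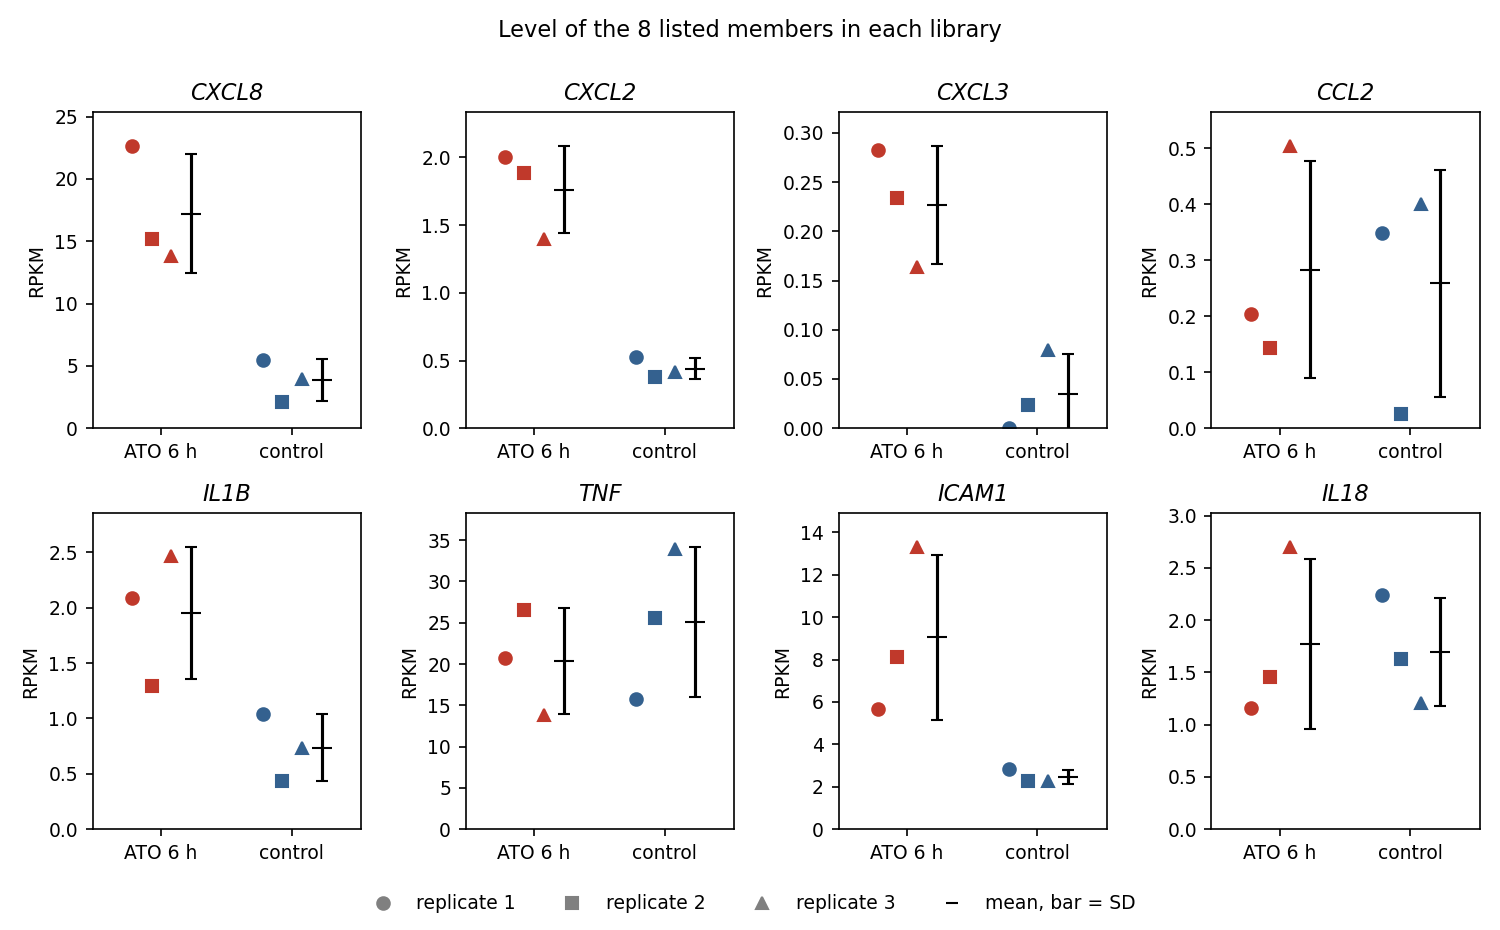
RPKM of the 8 listed members in each library (one panel per gene, each axis starting at 0), with arsenic trioxide for 6 h left of control, symbols for the replicate, and mean with SD beside the points. The 3 treated points lie above all controls in CXCL8, CXCL2, CXCL3, IL1B and ICAM1 and overlap them in CCL2, TNF and IL18. The SD bar of control CXCL3 is cut at 0.

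CXCL8, the neutrophil chemoattractant also called interleukin 8 (chromosome 4, 73740506 to 73743716, GRCh38), was the chemokine of this set with the most reads. Its RPKM was 22.6, 15.2 and 13.8 in arsenic trioxide replicates 1, 2 and 3, and 5.49, 2.14 and 3.91 in control replicates 1, 2 and 3. The groups did not overlap, as in 21.9% of all tested genes in this direction, and treated replicate 1 and control replicate 1 were the highest of their groups. The mean was 17.2 ± 4.74 RPKM with arsenic trioxide and 3.84 ± 1.68 RPKM in controls (SD, n = 3 each). The log2 fold change of RPKM + 1 was 1.94 ± 0.29 (SE, limma-trend adjusted p = 0.00457), and it was called under each of 14 other settings (adjusted p 4.92e-05 to 0.0171). The values rest on 692 to 1148 reads per treated library and 94 to 252 reads per control library.

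CXCL2 (chromosome 4, 74097035 to 74099293, minus strand), which shares the receptor CXCR2 with CXCL8, was far lower in level. Its RPKM was 2.0, 1.89 and 1.40 in arsenic trioxide replicates 1, 2 and 3, against 0.528, 0.379 and 0.413 in control replicates 1, 2 and 3. No treated library came near the controls, which were close to one another. The means were 1.76 ± 0.323 RPKM with arsenic trioxide and 0.44 ± 0.0782 RPKM without it (SD, n = 3 each), a ratio of 4.01 that rests on 173 treated and 41 control reads in all. The fitted log2 change was 0.93 ± 0.15 (SE, limma-trend adjusted p = 0.00552). It depends on the pseudocount at this level, being 1.78 with 0.1 and 0.31 with 5, and 1.97 with limma-voom on the reads (adjusted p 0.000952 to 0.0242 over 14 settings).

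CXCL3 (chromosome 4, 74036589 to 74038807, minus strand), the close relative of CXCL2, was barely detected. It had 14, 11 and 8 reads in arsenic trioxide replicates 1, 2 and 3, and 0, 1 and 4 reads in control replicates 1, 2 and 3, or 0.164 to 0.283 RPKM with arsenic trioxide and 0 to 0.0797 RPKM in controls. Scaled to library totals, the reads of the 3 treated libraries were 6.27 times those of the controls (95% exact interval 2.43 to 20.6, counting error only). CXCL3 lay under the filter of the main test. It was called higher in limma-trend with no filter (log2 fold change of RPKM + 1 of 0.25 ± 0.06 SE, adjusted p = 0.0263) and in limma-voom with no filter (2.76 ± 0.86, adjusted p = 0.0264), where 12.4% of genes were called higher. Of the 50-base windows of CXCL2 transcripts, 8.99% also occur in CXCL3 and 3.88% in CXCL1. Of those of CXCL3 transcripts, 6.01% occur in CXCL2 and 0.259% in CXCL1. Reads of 50 bases from such windows could not be told apart, and how such reads were counted is not known. CXCL2 had 173 treated and 41 control reads, against 33 and 5 for CXCL3, so for CXCL3 the share of such reads need not be small. The part of such reads in the rise of CXCL3 was not tested.

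CCL2, the monocyte chemoattractant (chromosome 17, 34255218 to 34257203), was not called in limma-trend or limma-voom with no filter. CCL2 measured 0.203, 0.143 and 0.504 RPKM in treated replicates 1, 2 and 3, and 0.349, 0.026 and 0.401 RPKM in control replicates 1, 2 and 3. These are 6 to 22 reads per treated library and 1 to 18 reads per control library, and the groups overlap throughout. Scaled to library totals the ratio was 1.06 (95% exact interval 0.648 to 1.76, counting error only), and limma-voom with no filter gave a log2 fold change of 0.47 with an interval of -1.19 to 2.13 (adjusted p = 0.707). That interval includes the change of IL1B in the same fit (1.42), so a change of that size is not excluded for CCL2. For CCL3 (chromosome 17, 36088256 to 36090169, minus strand), 74.6% of the exon bases in GENCODE 29 are shared with an antisense gene, AC243829.4. Its relative listed as CCL3L3, which GENCODE 29 names CCL3L1, was at 0.437 ± 0.0595 RPKM with arsenic trioxide and 0.588 ± 0.144 RPKM in controls (SD, n = 3 each) and was not tested.

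IL1B, the fever-inducing cytokine interleukin 1 beta (chromosome 2, 112829751 to 112836903, minus strand), rose by the smallest ratio of the 4 called members. IL1B measured 2.09, 1.30 and 2.47 RPKM in arsenic trioxide replicates 1, 2 and 3, against 1.04, 0.434 and 0.729 RPKM in control replicates 1, 2 and 3. The lowest treated library, replicate 2, was the nearest to the highest control, and the groups did not overlap. The means were 1.95 ± 0.598 RPKM with arsenic trioxide and 0.734 ± 0.303 RPKM in controls (SD, n = 3 each), on 397 treated and 142 control reads. Its fitted log2 change was 0.76 ± 0.21 (SE, limma-trend adjusted p = 0.0379), and 1.32 and 0.28 with pseudocounts of 0.1 and 5, or 1.45 with limma-voom. The call was lost without arsenic trioxide replicate 1 (adjusted p = 0.105) or 3 (0.101) and without control replicate 2 (0.106) or 3 (0.0903).

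TNF, the tumour necrosis factor (chromosome 6, 31575567 to 31578336), had the highest mean of the set in either group. TNF measured 20.7, 26.6 and 13.8 RPKM in treated replicates 1, 2 and 3, and 15.8, 25.6 and 33.9 RPKM in control replicates 1, 2 and 3. The spread within each group was larger than the difference between the means, 20.4 ± 6.38 RPKM with arsenic trioxide and 25.1 ± 9.08 RPKM without it (SD, n = 3 each). The lowest library of each group was the one set apart by the second principal component, treated replicate 3 and control replicate 1. The log2 fold change was -0.27 with a 95% interval of -1.0 to 0.46 (limma-trend adjusted p = 0.555). That interval lies wholly below those of CXCL8 (1.26 to 2.62) and ICAM1 (0.84 to 2.09). Without control replicate 1 the value was -0.56 (adjusted p = 0.193), and without treated replicate 3 or control replicate 3 it was -0.03 (0.952 and 0.955).

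IL18, interleukin 18 (chromosome 11, 112143251 to 112164117, minus strand), was at 1.16, 1.45 and 2.70 RPKM in treated replicates 1, 2 and 3, and at 2.24, 1.63 and 1.21 RPKM in control replicates 1, 2 and 3. Its highest values fell in the same libraries in which TNF was lowest, treated replicate 3 and control replicate 1. The log2 fold change was 0.02 with a 95% interval of -0.56 to 0.59 (limma-trend adjusted p = 0.962). It was -0.21 without arsenic trioxide replicate 3 (adjusted p = 0.509) and 0.16 without control replicate 1 (0.701).

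ICAM1 (chromosome 19, 10270835 to 10286615), the integrin ligand, rose in all treated libraries but to unequal extents. ICAM1 measured 5.69, 8.13 and 13.3 RPKM in arsenic trioxide replicates 1, 2 and 3, against 2.86, 2.26 and 2.29 RPKM in control replicates 1, 2 and 3. The lowest treated library exceeded the highest control, and the controls were within a narrow range. The means were 9.04 ± 3.89 RPKM with arsenic trioxide and 2.47 ± 0.338 RPKM in controls (SD, n = 3 each). Its fitted change was 1.47 ± 0.26 on the log2 scale (SE, limma-trend adjusted p = 0.00894), 1.18 without treated replicate 3 (adjusted p = 0.0102), and called under each of 14 other settings (adjusted p 0.000261 to 0.0324). Treated replicate 3, the highest for ICAM1, was the lowest for CXCL8, CXCL2, CXCL3 and TNF, and treated replicate 1, the lowest for ICAM1, was the highest for CXCL8, CXCL2 and CXCL3. Antisense genes share exon bases with ICAM1, AC011511.5 over 815 and AC011511.2 over 61 of 3706, and the library kit does not mark strand, so reads there cannot be told apart.

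With 3 libraries a group, the exact permutation test of a single member (two-sided) cannot give a p below 0.1, which CXCL8, CXCL2, CXCL3, IL1B and ICAM1 reached. It gave p = 0.5 for TNF and 1.0 for CCL2 and IL18 in the same exact permutation test. Reaching 0.1 means only that the groups did not overlap, as in 21.5% of listed genes with the treated libraries higher. In arsenic trioxide libraries the order of mean RPKM was TNF, CXCL8, ICAM1, IL1B, IL18, CXCL2, CCL2 and CXCL3. The ranges of TNF and CXCL8 overlapped there, as did those of IL1B, IL18 and CXCL2 and those of CCL2 and CXCL3. In control libraries the order was TNF, CXCL8, ICAM1, IL18, IL1B, CXCL2, CCL2 and CXCL3. There CXCL8 lay below TNF in each library and overlapped ICAM1, and IL18 lay above IL1B without overlap.

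**Figure D3:**
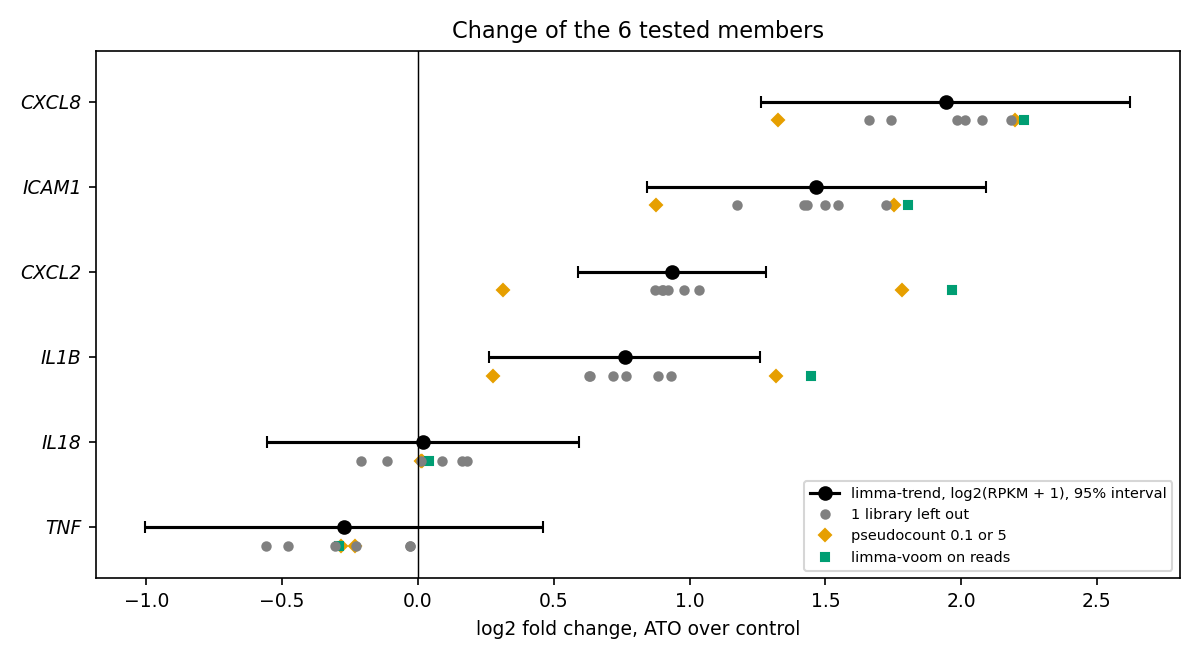
Log2 fold change, arsenic trioxide over control, of the 6 tested members. Black points and bars give limma-trend on log2 RPKM + 1 with its 95% interval, and the small symbols below give fits that leave out 1 library (grey), other pseudocounts (orange) and limma-voom on reads (green). CXCL8, ICAM1, CXCL2 and IL1B lie above 0 in every fit drawn, the size for CXCL2 and IL1B moves with the pseudocount, and the intervals of IL18 and TNF include 0.

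The 3 genes whose log2 RPKM + 1 followed that of CXCL8 most closely over the 6 libraries were ATG5, an autophagy gene (Pearson's r = 0.998), and RP11-452J21.2 and AC079807.2 (r = 0.998 and 0.996). These coefficients describe 6 points in 2 groups. ATG5 was at 5.04 ± 0.256 RPKM with arsenic trioxide and 3.94 ± 0.304 RPKM without it (SD, n = 3 each) and was not called (limma-trend adjusted p = 0.0786), although it was with limma-voom under the same filter (0.0299).

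The pathway around these genes was described with 8 lists, which were read against a median log2 fold change of -0.0033 over all tested genes, of which 12.0% were called higher and 13.4% lower. IL1A, CASP1, NLRC4 and ATF3 averaged under 1 RPKM in controls and passed the filter through their treated libraries, and IL18RAP passed it through its controls. Counts and medians of their lists lean on such genes. All 8 lists were chosen with earlier results of these data known, so their counts and medians are descriptions only. Among 41 other chemokine genes, 11 were listed and 2 tested, and neither passed (0 higher and 0 lower in limma-trend, at an unadjusted p under 0.05 and in limma-voom). CCL5, a chemokine for T cells and monocytes, had the highest level of the chemokines tested at 41.6 ± 10.3 RPKM with arsenic trioxide and 30.4 ± 8.55 RPKM in controls (SD, n = 3 each, log2 fold change 0.45, limma-trend adjusted p = 0.197). CCL20 was at 1.24 ± 0.202 and 1.56 ± 0.711 RPKM in arsenic trioxide and control libraries (-0.16, adjusted p = 0.615). Of 26 other inflammatory cytokines 16 were listed and 5 tested. IL1A, which encodes interleukin 1 alpha and acts on the receptor of IL1B, rose to 2.66, 1.6 and 2.89 RPKM in arsenic trioxide replicates 1, 2 and 3, against 0.489, 0.705 and 0.50 RPKM in control replicates 1, 2 and 3 (log2 change 1.09 ± 0.19 SE, limma-trend adjusted p = 0.00746). Its order among the treated libraries was that of IL1B, with replicate 2 lowest and replicate 3 highest. The median of the 5 tested cytokines was -0.09 (0 lower, also 0 at an unadjusted p under 0.05 and in limma-voom under the same filter). Other filters changed these counts, to 3 higher and 1 lower with no filter and to 2 higher and 2 lower with the filter at 1 CPM. Under 1 RPKM and named after their values were seen, CSF1, a growth factor of macrophages, was at 0.384 ± 0.0547 RPKM with arsenic trioxide and 0.0765 ± 0.0119 RPKM in controls, and TNFSF13, a cytokine of the TNF family, at 0.522 ± 0.0753 RPKM with arsenic trioxide and 1.02 ± 0.103 RPKM in controls (SD, n = 3 each). With no filter CSF1 was called higher (adjusted p = 0.00617 in limma-trend and 0.000939 in limma-voom) and TNFSF13 lower (0.0299 and 0.0257).

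Of 18 receptors, decoys and binding partners of the members, 13 were listed and 9 tested, with a median log2 fold change of 0.01. IL18RAP, the accessory chain of the IL18 receptor, fell to 0.558 ± 0.34 RPKM with arsenic trioxide, against 2.77 ± 0.792 RPKM in controls (SD, n = 3 each, log2 fold change -1.28, limma-trend adjusted p = 0.00921). It was the only tested receptor gene called (0 higher, also at an unadjusted p under 0.05 and in limma-voom). CCR2 and IL1R1 lay under the filter and are named after their values were seen. CCR2, the receptor of CCL2, had 0 reads in each treated library and 28, 12 and 31 reads in control replicates 1, 2 and 3. A fold cannot be measured from 0 reads. With a floor of 3 reads set in for the treated group, CCR2 would be 24.9-fold lower with arsenic trioxide, leaving out counting error and spread between libraries. CCR2 was called lower in limma-voom with no filter (adjusted p = 0.000187). IL1R1, the signalling receptor of IL1A and IL1B, had 33, 17 and 26 reads in treated replicates 1, 2 and 3, and 3, 0 and 2 reads in control replicates 1, 2 and 3 (adjusted p = 0.00288 in the same fit).

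Of 14 genes for maturation and release of IL1B, IL18 and TNF, 11 were listed and 9 tested, of which 4 rose and 1 fell (median 0.24). CASP1, the caspase that cuts both interleukins, rose to 2.47 ± 0.612 RPKM with arsenic trioxide, against 0.854 ± 0.125 RPKM without it (SD, n = 3 each, log2 fold change 0.89, limma-trend adjusted p = 0.0095). CASP4, a sensor of intracellular bacterial lipopolysaccharide, rose to 8.47 ± 0.707 RPKM, against 3.82 ± 0.391 RPKM in controls (0.98, adjusted p = 0.00175). The inflammasome sensor NLRC4 rose (0.60, adjusted p = 0.0195), and so did ADAM17, named after its values were seen (0.28, 0.0351). NLRP3, another inflammasome sensor, fell to 3.43, 2.79 and 2.91 RPKM in arsenic trioxide replicates 1, 2 and 3, against 5.63, 5.64 and 6.02 RPKM in control replicates 1, 2 and 3 (-0.74 ± 0.11 SE, limma-trend adjusted p = 0.00437). The call of NLRC4 was lost without treated replicate 1 or 2 and without control replicate 1 or 2 (adjusted p 0.0562 to 0.0653). That of ADAM17 was lost without treated replicate 1 or 2 and without any 1 control (0.0644 to 0.102). With no filter or a filter at 1 CPM, 2 genes of this list were called lower. RHBDF2, averaging under 1 RPKM, is named after its values were seen. It was at 0.484 ± 0.105 RPKM with arsenic trioxide and 1.08 ± 0.214 RPKM in controls (SD, n = 3 each). With no filter RHBDF2 was called lower (adjusted p = 0.0323 in limma-trend and 0.00157 in limma-voom).

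Of 20 genes of NF-kB subunits, inhibitors and feedback, all were listed and 17 tested, of which 2 rose and 3 fell (median 0.07), counts near the shares of all tested genes (12.0% higher and 13.4% lower) and so no result about the list. TNFAIP2, a gene that responds to TNF, rose to 25.8 ± 10.3 RPKM with arsenic trioxide, against 10.6 ± 4.25 RPKM in controls (SD, n = 3 each, 1.21, limma-trend adjusted p = 0.0335), and NFKBIZ, a nuclear cofactor of NF-kB, also rose (0.78, adjusted p = 0.0387). The inhibitor NFKBIE (-0.59) and the kinase genes CHUK (-0.33) and IKBKB (-0.29, named after its values were seen) fell (limma-trend adjusted p = 0.024, 0.0177 and 0.0438). NFKBIA and TNFAIP3, feedback inhibitors that NF-kB itself induces, were chosen after their values were seen. NFKBIA was at 14.0 ± 1.62 RPKM with arsenic trioxide and 14.8 ± 1.54 RPKM without it (-0.08, 95% interval -0.34 to 0.18, adjusted p = 0.639), and TNFAIP3 was at 2.11 ± 0.742 and 3.25 ± 0.608 RPKM in treated and control libraries (-0.47, adjusted p = 0.134). In limma-voom with no filter TNFAIP3 was called lower (adjusted p = 0.0221), while the subunit gene NFKB2 (0.035) and BCL3, a nuclear partner of NF-kB under 1 RPKM (0.00926), were called higher. NFKB2 was not called in limma-trend (adjusted p = 0.136), and BCL3 was called there with no filter (0.0438). Both were also named after their values were seen. TNFAIP2 lost its call without treated replicate 1 or 3 or control replicate 2 or 3 (adjusted p 0.0651 to 0.0941), and NFKBIZ without treated replicate 1 or 2 or any 1 control (0.0796 to 0.106) or with no filter (0.0526). NFKBIE lost it without treated replicate 1 or 3 or control replicate 2 or 3 (0.0573 to 0.0766), CHUK without treated replicate 1 or 2 or control replicate 1 or 2 (0.0526 to 0.0583), and IKBKB without any 1 treated library or control replicate 2 or 3 (0.0687 to 0.131).

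Of 11 AP-1 and early growth response factors, 8 were tested, 5 rose and 2 fell (median 0.76). Over all tested genes 12.0% were called higher and 13.4% lower, but this list was chosen with earlier results known. JUN, a core subunit of AP-1, rose to 7.27 ± 0.473 RPKM with arsenic trioxide, against 1.92 ± 0.391 RPKM in controls (SD, n = 3 each, 1.51, limma-trend adjusted p = 0.000896), and ATF3, a stress-induced relative, rose to 4.34 ± 1.41 RPKM, against 0.818 ± 0.146 RPKM in controls (1.52, adjusted p = 0.00413). JUND (0.74), FOSL1 (0.91) and EGR1 (0.78) also rose (adjusted p = 0.00399, 0.0115 and 0.0493), and JUNB (-0.51) and FOSL2 (-0.63) fell (0.043 and 0.036, limma-trend). EGR1, JUNB and FOSL2 are named after their values were seen. EGR1 lost its call without treated replicate 1 or 2 or any 1 control (adjusted p 0.0723 to 0.124) and under 3 other settings (0.0518 to 0.0654). JUNB lost it without treated replicate 1 or 3 or any 1 control (0.0842 to 0.119) and with no filter (0.051), and FOSL2 without treated replicate 1 or any 1 control (0.0549 to 0.108).

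Of 11 regulators of AU-rich messenger RNAs, 10 were tested, 3 rose and 2 fell (median -0.03). ZFP36L2, which promotes the decay of such messengers, had 7.55 ± 1.5 RPKM with arsenic trioxide and 31.3 ± 4.13 RPKM in controls (SD, n = 3 each, -1.93, limma-trend adjusted p = 0.000657). DUSP1, a phosphatase that switches off the stress kinases p38 and JNK, rose to 3.44 ± 0.30 RPKM, against 1.09 ± 0.228 RPKM in controls (1.09, adjusted p = 0.00268). ZFP36, the relative of ZFP36L2 also called tristetraprolin and named after its values were seen, rose (0.48, adjusted p = 0.0347), as did TIA1 (0.27, 0.0327), and ELAVL1 fell (-0.26, 0.0294). Leaving out 1 library ended each of these 3 calls. ZFP36 lost its call without any 1 of the 6 libraries (adjusted p 0.053 to 0.106), TIA1 without treated replicate 1 or 2 or any 1 control (0.0622 to 0.0963), and ELAVL1 without treated replicate 2 or 3 or any 1 control (0.0502 to 0.0903).

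Of 11 other leukocyte adhesion genes, 5 were tested and 2 fell, with a median of -0.20 and 0 higher (also 0 at an unadjusted p under 0.05 and in limma-voom). ITGA4, the integrin alpha 4 chain, fell to 24.9, 26.3 and 21.2 RPKM in arsenic trioxide replicates 1, 2 and 3, against 46.1, 45.7 and 44.9 RPKM in control replicates 1, 2 and 3 (-0.89 ± 0.08 SE, limma-trend adjusted p = 0.00097). SELPLG, the ligand of P-selectin, fell to 2.69 ± 0.41 RPKM with arsenic trioxide, against 6.59 ± 1.18 RPKM without it (SD, n = 3 each, -1.03, adjusted p = 0.0048). The groups did not overlap in either gene, as in 22.6% of all tested genes in this direction. Within adhesion genes ICAM1 was called higher and these 2 were called lower in treated cells.

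**Figure D4:**
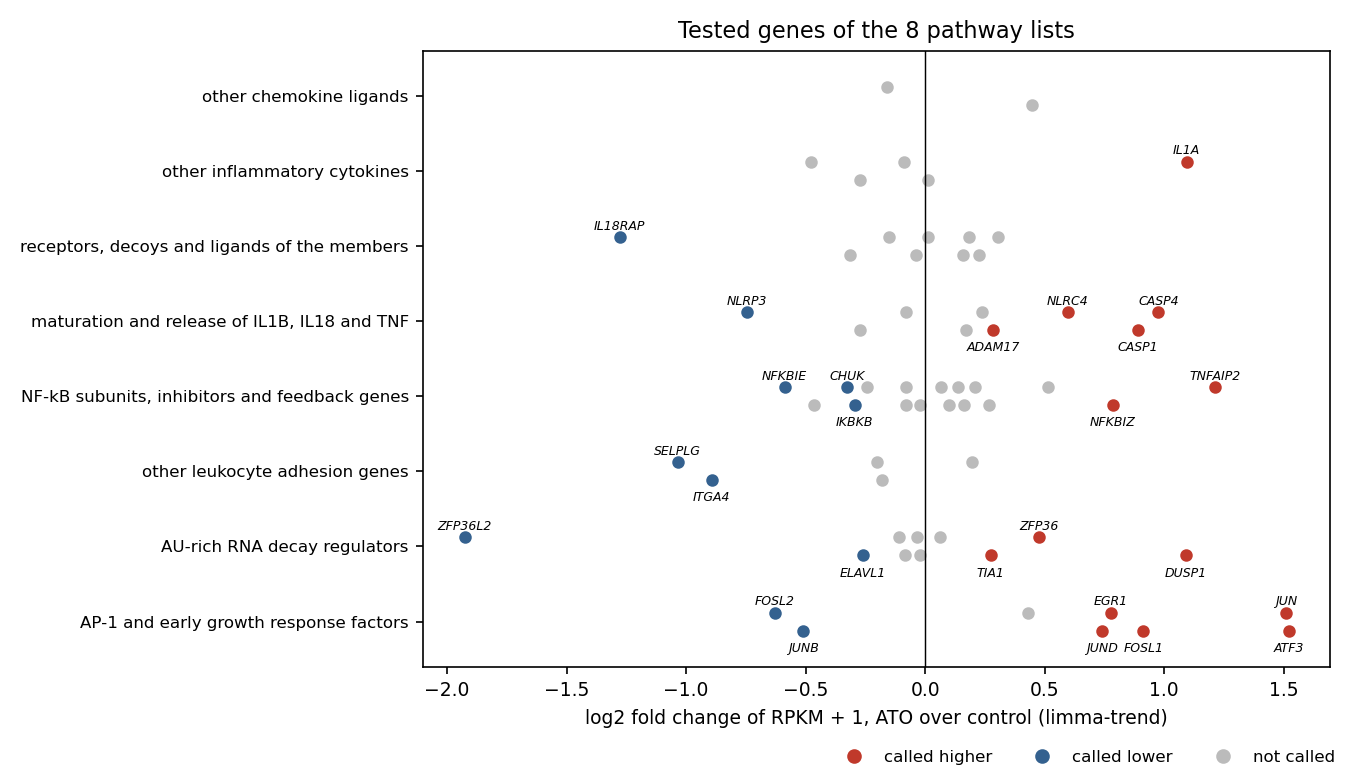
Log2 fold change of RPKM + 1, arsenic trioxide over control, for the tested genes of the 8 lists (1 point per gene, limma-trend). Red points were called higher, blue points lower and grey points not called, with the names of the called genes. Of the AP-1 and early growth response factors 5 of 8 tested are red, and both called adhesion genes lie below 0. Over all tested genes 12.0% were called higher and 13.4% lower.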

How the data were processed

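Ribosomal RNA was taken out and libraries were prepared with a NEBNext Ultra RNA kit, per the labels' protocols, a kind of kit that keeps no strand. HISAT2 2.1.0, HTSeq, DESeq2 and the build hg38 are named in the submitters' processing notes, without parameters. Per the file headers, the authors took out duplicates (rmdup). The authors deposited RPKM per gene and library, with a comparison of the groups that holds a mean signal, a log2 fold change with its error, a test score and p-values, per the file headers. Of these, the log2 fold change, its direction read from the values, and the adjusted p-value are quoted only as the authors' values.

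RPKM values were turned back into whole reads with exon lengths of GENCODE 29 and 1 total per library, within 0.01 reads for 93.0% of genes, and for 100.0% once the deposited mean settled the length. Log2 of RPKM + 1 was fitted with limma 3.58.1 in trend mode (R 4.3.3), with treatment as the only term, over genes averaging 1 RPKM or more, with Benjamini-Hochberg adjustment and a threshold of 0.05. Alternatives were pseudocounts of 0.1 and 5, no filter, a filter at 1 CPM, median-ratio and upper quartile factors, limma-voom with TMM factors, the replicate number as a block and leaving out each library. The scripts were tested on simulated data. Libraries of a group differed beyond sampling noise (chi-square over its degrees of freedom 5.11 to 12.2). Motif windows were taken from RefSeq promoters. The result of 1 further marker list is not reported here. The members and lists were chosen with earlier results of these data known. Within lists, up to 4 called genes with the smallest p-values are named, or, with none called, the 2 with the highest mean.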

Additional observations from a re-analysis of the deposited data

How the results depend on the processing

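Leaving out 1 library gave 3 to 4 members higher and 0 lower, 1331 to 1525 genes higher and 1427 to 1908 lower, where all libraries gave 4, 0, 2021 and 2252. The count of higher genes was 1331 without arsenic trioxide replicate 1 and 1341 without control replicate 3, and that of lower genes 1427 without control replicate 2 and 1487 without control replicate 3. CXCL8, CXCL2 and ICAM1 kept their calls under all 14 other settings, and IL1B under 10 of 14. IL18, not called, ran from -0.209 without arsenic trioxide replicate 3 to 0.179 without arsenic trioxide replicate 1, and was -0.115 without control replicate 3. CCL20, not called, ran from -0.327 without control replicate 3 to 0.051 without control replicate 1. The cause was not tested. Whether the replicate numbers shared by the groups pair the libraries is not known. Deviations from the group means correlated by -0.085, 0.148 and -0.083 for numbers 1, 2 and 3. Of 6 libraries, 2 correlated best with their own number. Such weak correlations, from means of 3 libraries, cannot tell whether libraries were handled in pairs. With the replicate number as a block, 1460 genes were higher and 1616 lower, and 4 members were higher and 0 lower. In list genes with the block, 2 of the 4 maturation genes stayed called higher, 0 of 3 NF-kB genes lower, and 1 of 3 and 1 of 2 AU-rich regulators higher and lower. Of 9 list genes averaging under 1 RPKM that limma-trend called with no filter, named after their values were seen, 7 were also called by limma-voom with no filter. CSF1, IL1R1, BCL3 and EGR2 were higher and CCR2, TNFSF13 and RHBDF2 lower in both (limma-voom adjusted p 0.000187 to 0.0257). CXCL11 and MIF were higher in limma-trend alone (limma-voom 0.0739 and 0.189). Depth limits CCL2 and CXCL3, with at most 22 reads in a library.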
